A study of Rattus norvegicus with 6 samples.

Results

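DNA replication and S phase genes are described here in cultured primary rat Schwann cells, the glia of peripheral nerve. They comprise 52 genes of the replication machinery and S phase entry, listed by name with earlier results of these data known, of which 47 were represented by 63 probe sets annotated with 1 gene symbol. The whole table held 14217 such genes on 20826 probe sets, among 31042 probe sets tested. The genes Cdc6, Gins2, Cdc7 and Dbf4 were not analysed here, and neither was Rrm2, which is listed only on 2 probe sets that also name another gene. All cells of both groups carried an inducible RafER allele, in which an estrogen receptor domain that binds tamoxifen is joined to the Raf kinase. They were taken from sciatic nerve, plated in 3% serum, held for 24 h in a minimal medium and then given ethanol vehicle (3 arrays) or tamoxifen (3 arrays) for 24 h. Treatment in culture is taken from the design text, while the source labels speak of treated rats. The design text calls the 3 experiments independent. Neither the rats' age, sex or strain nor how RafER was introduced is given in the sources used here. No RafER-free cells were analysed here, and an effect of tamoxifen itself cannot be told apart from that of Raf.

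A cell copies its DNA once per division. In G1 the origin recognition complex, Cdc6 and Cdt1 load the ring-shaped MCM2-7 helicase onto origins. On entry into S phase, cyclin E with Cdk2 and the kinase Cdc7 with Dbf4 help to turn each ring into an active helicase with Cdc45 and GINS, and DNA polymerases copy both strands behind it, tethered by the sliding clamp PCNA. Many of these genes are known targets of E2F transcription factors, which RB-family proteins hold in check in resting cells. Schwann cells in the intact adult nerve seldom divide, and they re-enter the cell cycle after nerve injury.

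RefSeq promoters (assembly GRCr8, 250 bases before to 50 after the transcript start) were found for 46 of the 52 genes, 49 promoters in all, and they held the E2F consensus more often than promoters at large. The consensus was searched on both strands as the words TTTCCCGC, TTTCGCGC, TTTGCCGC and TTTGGCGC, and 20 of the 46 genes (43.5%) had at least 1 match. They were 18 of 35 genes that rose after tamoxifen and 2 of 8 that did not pass the test. By promoter, this was 40.8% of 49, against 2.14% of all 33469 promoters and 2.74% of 21851 protein-coding ones. Among genes outside this list that rose after tamoxifen, 5.65% of 1628 had a match, among those that fell 3.62% of 2069, and among those that did not pass the test 3.15% of 7993. At least 2 matches were found in 9 of the 49 promoters (18.4%), against 0.0837% of all promoters. The CCAAT box (CCAAT) was in 59.2% of the 49 promoters and 37.5% of all. The cell cycle homology element (TTTGAA) was in 16.3% and 18.3%. In 1 of the 49 promoters an E2F match overlapped a CCAAT match, and in 0 a TTTGAA match. A match is a run of letters and no measurement of binding. Other forms of the E2F site were not searched, so a promoter without a match was not shown to lack a site.

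The 7 windows below, each of 60 bases, show where the letters lie in promoters picked from those with a match. Genes that rose without a match, such as Cdc45, Tk1 and Pcna, are not shown. In Mcm2, Mcm5, Mcm6 and Gins1 a match on each strand overlapped by 4 bases, an arrangement found in 6 of the 33469 promoters, the rest of them belonging to Topbp1. Mcm7 had separate matches, 1 of which is shown, and Pclaf, the gene with the largest rise, had 1 match. Rfc3 is shown because its promoter held 2 matches and its transcript did not pass the test. Capitals mark the E2F words or their reverse complements, and each run is written 5′ to 3′ on the strand of the gene. The windows are chr4:122918075-122918134 (minus strand) for Mcm2, chr19:13488576-13488635 (plus) for Mcm5, chr13:42404456-42404515 (minus) for Mcm6 and chr3:160184871-160184930 (plus) for Gins1. They are chr12:22163197-22163256 (minus) for Mcm7, chr8:75315646-75315705 (plus) for Pclaf and chr12:5836528-5836587 (plus) for Rfc3, all in GRCr8.
Mcm2: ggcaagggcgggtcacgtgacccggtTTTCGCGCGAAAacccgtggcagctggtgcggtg
Mcm5: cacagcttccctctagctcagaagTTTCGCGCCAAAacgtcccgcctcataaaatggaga
Mcm6: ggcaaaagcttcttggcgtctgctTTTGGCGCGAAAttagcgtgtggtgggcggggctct
Gins1: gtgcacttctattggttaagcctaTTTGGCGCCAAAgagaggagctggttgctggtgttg
Mcm7: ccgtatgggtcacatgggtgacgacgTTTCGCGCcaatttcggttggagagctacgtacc
Pclaf: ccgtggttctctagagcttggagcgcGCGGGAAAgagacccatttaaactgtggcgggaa
Rfc3: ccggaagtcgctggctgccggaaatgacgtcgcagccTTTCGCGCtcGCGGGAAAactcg

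**Figure D1:**
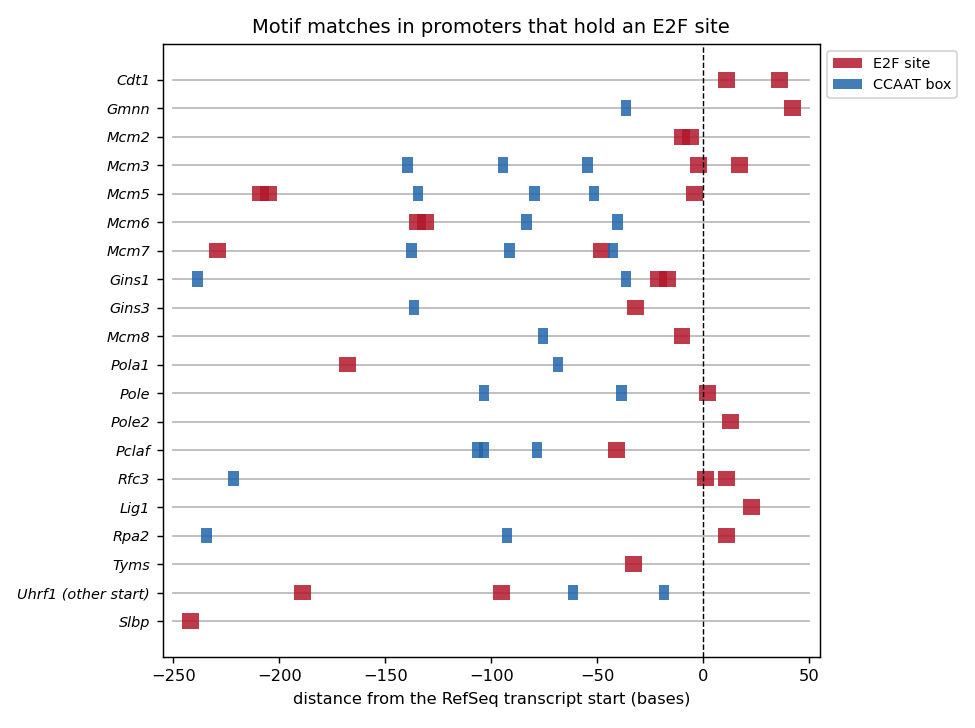
Each line is a promoter that holds an E2F word, from 250 bases before to 50 bases after the transcript start (dashed), with E2F words in red and CCAAT boxes in blue, both strands. In 16 genes a match lay between 60 bases before and 50 bases after the start.

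After tamoxifen 39 of the 47 genes rose, 8 did not pass the test and 0 fell, and the values of the groups did not overlap for 41, all of them higher. Among all genes 13.9% rose, 17.3% fell, and 23.7% had higher values that did not overlap. The median change was 1.01 log2 units, tamoxifen minus vehicle, against 0.01 over all genes, and 46 of the 47 lay above that overall median. A rise of at least 1 log2 unit, which is a doubling, was found for 25 of the 47, against 5.72% of all genes. A gene was called at an adjusted p of 0.05 in limma's moderated test, adjusted over all probe sets, and each gene is given by its probe set of highest mean. With limma 0 genes fell at an unadjusted p of 0.05 too. Against a minimum fold of 1.5, 13 of the 47 passed, against 3.46% of all genes. Of all 63 probe sets 49 rose and 0 fell, against 11.5% of all probe sets that rose.

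**Figure D2:**
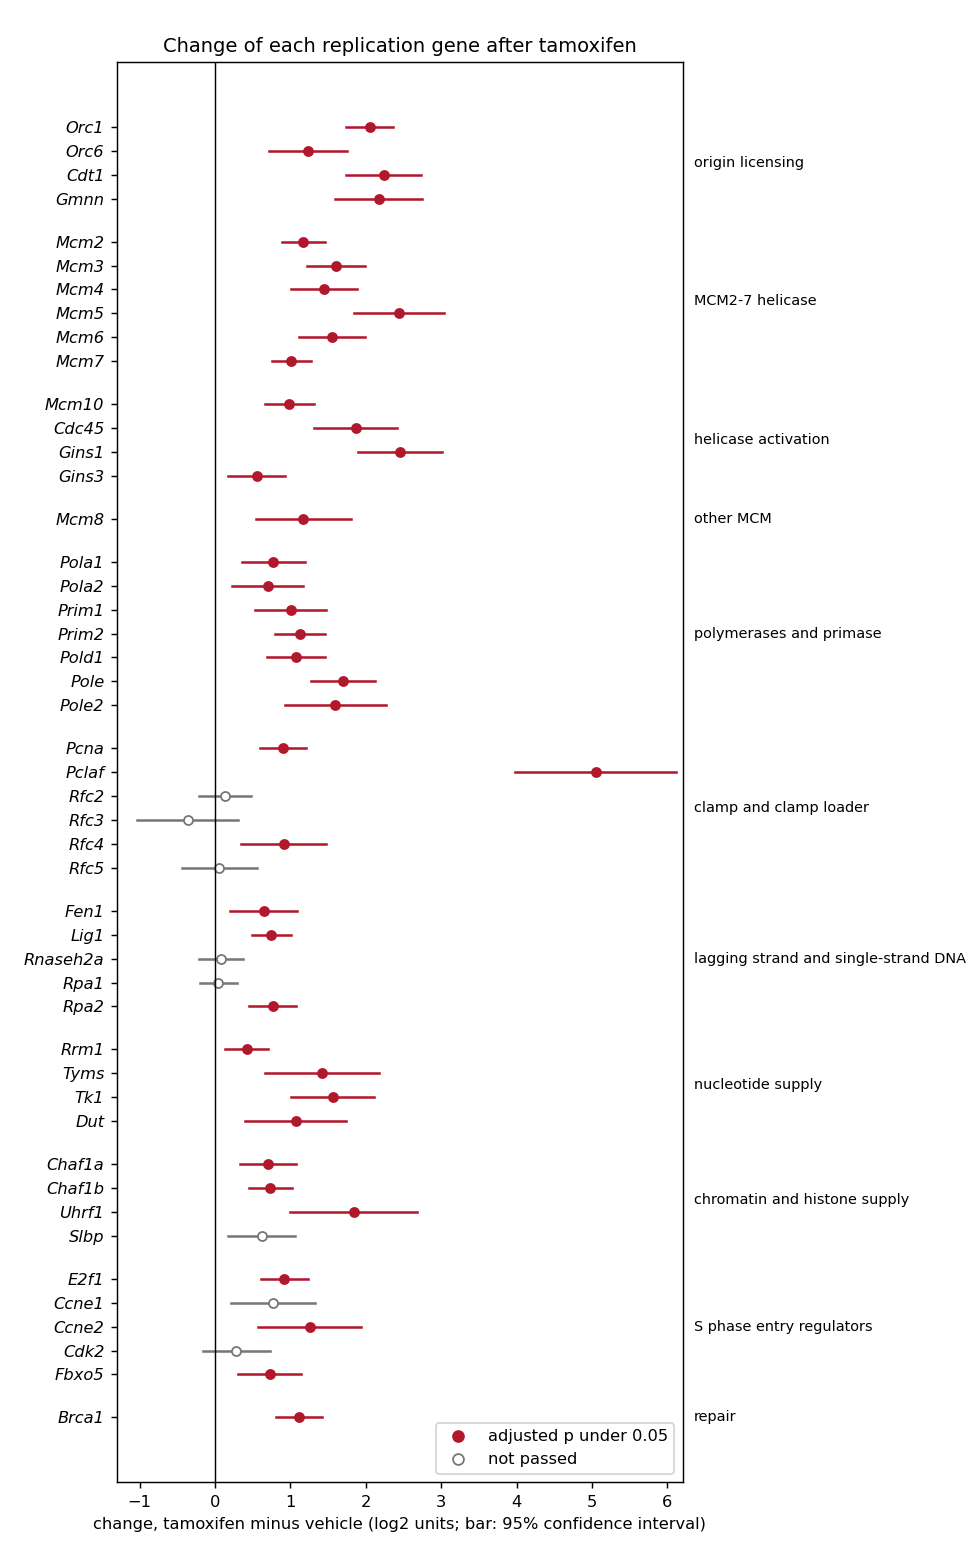
The change of each of the 47 genes (log2 units, tamoxifen minus vehicle) is drawn with its 95% confidence interval, grouped by role, with filled points for genes past the adjusted p of 0.05. Pclaf stands at 5.05, the intervals of Rfc2, Rfc3, Rfc5, Rnaseh2a, Rpa1 and Cdk2 include 0, and all other changes lie between 0.42 and 2.45.

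On the vehicle array of experiment 1 control transcripts gave less 5′ signal, with a mean 3′ minus 5′ difference over 3 transcripts of 0.84 log2 units against 0.16 to 0.27 on the other 5. Without it 35 of the 47 genes rose and 0 fell, while 1915 of all 14217 genes rose and 2178 fell. Schwann cell markers were high on all arrays (mean log2 value over 6 of 9 listed markers 10.85 to 11.10 in vehicle and 10.44 to 10.56 in tamoxifen), and S100b and Ngfr fell. Under a block on experiment number Sox10 also passed as lower (-0.90, adjusted p = 0.0300 against 0.104 without it) and Egfl8 as higher (0.79, 0.00610 against 0.507). The means were low in both groups for 8 macrophage markers (5.03 to 5.09 and 5.11 to 5.19) and 5 endothelial markers (4.65 to 4.69 and 4.70 to 4.77). None of these 13 passed, with or without the block. Of 6 mural markers (5.84 to 6.18 and 5.81 to 6.19) 0 passed without the block, and with it Pdgfrb passed as lower (-1.10, adjusted p = 0.00209 against 0.257) and Cspg4 as higher (0.39, 0.0457 against 0.0643). Of 8 fibroblast markers (6.03 to 6.26 and 5.84 to 5.89) Pdgfra and Twist2 rose, and Col1a1 and Col3a1 fell. That mean covers unlike levels. Col1a1 was bright (mean 13.15 in vehicle and 11.92 in tamoxifen), and Col3a1 read 8.68 and 6.30. Pdgfra (4.90 and 5.43) and Twist2 (5.18 and 5.67) were low. Twist2 (0.49, adjusted p = 0.0473) did not pass with the block (0.0710). The part of other cells in the results was not tested. In these bulk samples more cells in S phase and more RNA per cell cannot be told apart. Dusp6, a phosphatase gene that ERK signalling induces, rose by 4.53 ± 0.08 (SE).

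The origin licensing genes on the list rose together, all 4 of those measured, by 1.23 to 2.24 log2 units. Cdt1, which brings the MCM ring to origins, read 7.92, 7.70 and 7.26 on the vehicle arrays of experiments 1, 2 and 3 and 9.54, 9.97 and 10.07 after tamoxifen. The groups stood well apart, with a change of 2.24 ± 0.21 (SE, adjusted p = 0.00103). Gmnn encodes geminin, the protein that binds Cdt1 and blocks relicensing once replication has begun. It went from 5.90, 5.67 and 5.64 to 7.40, 8.40 and 7.92, a rise of 2.17 ± 0.24, so that the loading factor and its inhibitor rose by similar amounts. The dimmer Gmnn probe set changed by 0.23 and did not pass (adjusted p = 0.0852).

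Orc1 and Orc6 are the subunits of the origin recognition complex on the list. Orc1 read 3.74, 3.63 and 3.41 in vehicle, close to the lowest values of the table (2.99), and 5.51, 5.83 and 5.59 after tamoxifen, a rise of 2.05 ± 0.13 (adjusted p = 2.92e-04). The files hold no detection calls, so such a low level can be background and its fold understated. Orc6 rose by 1.23 ± 0.22 and by 1.11 and 1.20 on its other probe sets. Outside the list Orc5 fell by 0.96 ± 0.11 (from 9.34 ± 0.12 to 8.38 ± 0.14, mean ± SD, n = 3), a call held under both other scalings of the arrays. Orc2, Orc3 and Orc4, named after their values were seen, did not pass (-0.18, -0.07 and 0.45), and Orc4 passed under the block on experiment (adjusted p = 0.0339) or without vehicle array 2 (0.0311).

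All 6 genes of the MCM2-7 helicase rose. Mcm5 had the largest change: 6.98, 7.13 and 7.05 in vehicle became 8.92, 9.57 and 9.97, a rise of 2.44 ± 0.25 or 5.41-fold (adjusted p = 0.00135). Mcm7 had the smallest. It read 10.42, 10.29 and 10.21 in vehicle and 11.16, 11.36 and 11.44 after tamoxifen, a rise of 1.01 ± 0.11 (adjusted p = 0.00158). Mcm3, Mcm6, Mcm4 and Mcm2 lay between them at 1.60 ± 0.16, 1.55 ± 0.18, 1.44 ± 0.19 and 1.17 ± 0.12. The groups did not overlap for any of the 6, and every one kept its call under each alternative run for it. The ring holds 1 copy of each subunit as protein, which was not measured here. For RNA, the intervals of Mcm5 (1.84 to 3.03) and Mcm7 (0.75 to 1.27) were apart. Whether the subunits differed in their change was not tested.

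Listed factors that turn the ring into a working helicase rose too, all 4 of those measured. Outside the list, and named after their values were seen, Gins4 (0.59) and Donson (0.59) rose. Donson did not pass under the block on experiment (adjusted p = 0.0705). Recql4 (0.53, adjusted p = 0.0909), Topbp1 (0.43, 0.0677) and Mtbp (0.30, 0.0764) did not pass. The GINS subunit gene Gins1 went from 5.83, 6.24 and 5.98 to 7.96, 8.84 and 8.60, a rise of 2.45 ± 0.23 (adjusted p = 0.00107). Another GINS subunit gene, Gins3, read 6.98, 6.85 and 7.09 and then 7.19, 7.69 and 7.70, a far smaller rise of 0.55 ± 0.16 (adjusted p = 0.0462). Dropping any 1 vehicle array ended the call (adjusted p 0.0844, 0.127 and 0.0701 for arrays 1, 2 and 3), as did dropping tamoxifen array 2 (0.146) or 3 (0.140), median centring (0.0559) and a variance model with trend and robust (0.0536). Cdc45, which rides with the helicase, rose by 1.86 ± 0.23 by its brightest probe set and by 2.49, 1.85 and 0.33 on the other ones. Mcm10, needed to start unwinding, rose by 0.98 ± 0.14, and by 1.48 on its dimmer probe set. Mcm8, which works with Mcm9 in recombination repair, rose by 1.17 ± 0.26. It missed the threshold once tamoxifen array 2 or 3 was dropped (adjusted p 0.0642 and 0.0688).

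The listed genes of the replicative polymerases and of primase all rose, 7 of 7. Outside the list Pold2 rose and Pold3 fell, as given below. Pold4 (-0.07, adjusted p = 0.740) and Pole4 (-0.04, 0.807), other subunits named after their values were seen, did not pass. Pole, the catalytic subunit of the leading-strand polymerase, read 5.86, 5.63 and 5.76 in vehicle and 7.20, 7.30 and 7.84 after tamoxifen, a rise of 1.69 ± 0.18. Its partner subunit Pole2 rose by 1.60 ± 0.28, and Pold1, catalytic subunit of the lagging-strand polymerase, by 1.07 ± 0.16. The primase subunits Prim1 and Prim2, which lay down the RNA primers, rose by 1.00 ± 0.20 and 1.13 ± 0.14. Pola1 and Pola2, the polymerase subunits that extend those primers, had the smallest rises of this group, 0.77 ± 0.18 and 0.70 ± 0.20. For Pola1, dropping vehicle array 2 or 3 or tamoxifen array 2 ended the call (adjusted p 0.0655, 0.0607 and 0.0600). For Pola2, dropping vehicle array 2 or 3 did so (0.114 and 0.118), as did dropping tamoxifen array 2 or 3 (0.145 and 0.141), the block on experiment (0.0818) and median centring (0.0579).

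The sliding clamp and its partners differed widely. Pclaf encodes a small protein that binds PCNA, and it had the fifth largest rise among all 14217 genes (rank 5). It read 4.85, 4.51 and 5.06 in vehicle and 8.82, 10.69 and 10.06 after tamoxifen. The rise was 5.05 ± 0.45 log2 units, or 33.1-fold with a 95% confidence interval of 15.8 to 69.3 (adjusted p = 8.72e-04). Pcna itself was bright in both groups, at 11.90, 11.89 and 11.70 and then 12.49, 12.88 and 12.81, and rose by 0.90 ± 0.13, or 1.87-fold (adjusted p = 0.00407).

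Of the 4 small subunits of replication factor C, the loader that opens the clamp, 1 rose. Rfc4 went from 8.91, 9.09 and 8.68 to 9.32, 10.23 and 9.86 (0.91 ± 0.24, adjusted p = 0.0332). It missed the threshold once any 1 vehicle array was dropped (adjusted p 0.0634, 0.0540 and 0.0936 for arrays 1, 2 and 3) or tamoxifen array 2 or 3 was (0.0813 and 0.100). Rfc3 read 9.20, 9.92 and 10.17 in vehicle and 9.03, 9.70 and 9.47 after tamoxifen, with overlapping groups and a difference of -0.36 (95% interval -1.03 to 0.31). It was the only one of the 47 genes with a negative difference, and all 3 of its same-number differences were below 0. Rfc2 (0.13, interval -0.22 to 0.48) and Rfc5 (0.06, interval -0.44 to 0.56) did not pass either, nor did any of these 3 under quantile normalization or median centring. Whether Rfc4 differed from the other subunits was not tested. Rfc1, the large subunit, named after its value was seen, changed by -0.23 (adjusted p = 0.298), and passed as lower without vehicle array 1 (-0.38, adjusted p = 0.0472).

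Of 5 genes that finish the lagging strand or cover single-stranded DNA, 3 rose, all by less than 1 log2 unit. Lig1, the ligase that seals Okazaki fragments, rose by 0.75 ± 0.11 and by 0.87 on its other probe set. Fen1, the nuclease that trims their ends, rose by 0.64 ± 0.19 (adjusted p = 0.0484), a call at the edge of the threshold. The block on experiment (adjusted p = 0.0873), median centring (0.0630) and trend and robust variance (0.0524) each ended it. Dropping vehicle array 2 or 3 (0.114 and 0.127) or tamoxifen array 2 or 3 (0.130 and 0.133) did as well. Rpa1 and Rpa2 are subunits of RPA, the protein that coats single-stranded DNA. Rpa2 went from 9.33, 9.31 and 9.13 to 9.79, 10.23 and 10.03 (0.76 ± 0.13, adjusted p = 0.00781), while Rpa1 stayed between 9.12 and 9.38 on all 6 arrays (0.04, interval -0.20 to 0.29). Rnaseh2a, a subunit of the nuclease that removes ribonucleotides from DNA, changed by 0.08 (interval -0.21 to 0.37).

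The listed enzymes that supply deoxynucleotides rose, all 4 of those measured. Outside the list, and named after their values were seen, Dctd rose (1.01 ± 0.19) and Dck did not pass (0.53, adjusted p = 0.0924). Tk1, the thymidine salvage kinase, read 6.61, 6.53 and 6.68 in vehicle and 7.61, 8.41 and 8.48 after tamoxifen, a rise of 1.56 ± 0.23, with 2.09 and 0.67 on its dimmer probe sets. Tyms, which makes thymidylate from deoxyuridylate, rose by 1.42 ± 0.32, and did not pass once tamoxifen array 2 or 3 was dropped (adjusted p 0.0657 and 0.0689). Dut, which keeps uracil out of DNA, rose by 1.07 ± 0.28 and by 0.38 on its dimmer probe set. Dropping vehicle array 1, 2 or 3 (adjusted p 0.0755, 0.0738 and 0.0802) or tamoxifen array 2 or 3 (0.0879 and 0.110) ended the call of its brighter probe set. Rrm1, the large subunit of ribonucleotide reductase, had the smallest rise of the 39, from 9.43, 9.36 and 9.24 to 9.55, 9.90 and 9.85 (0.42 ± 0.12, adjusted p = 0.0433). The block on experiment (adjusted p = 0.0678), median centring (0.0600) and trend and robust variance (0.0654) each ended the Rrm1 call. So did dropping vehicle array 1, 2 or 3 (0.0541, 0.0983 and 0.118) or tamoxifen array 2 or 3 (0.137 and 0.130).

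Of 4 genes that rebuild chromatin behind the fork, 3 rose. Uhrf1, which recognises newly copied, half-methylated DNA, went from a low 4.30, 4.47 and 4.47 to 5.37, 6.75 and 6.64, a rise of 1.84 ± 0.35 (adjusted p = 0.0112). The chromatin assembly factor subunits Chaf1a and Chaf1b rose by nearly the same amount, 0.71 ± 0.16 and 0.73 ± 0.12. Chaf1a did not pass once vehicle array 2 or 3 (adjusted p 0.0583 and 0.0527) or tamoxifen array 2 or 3 (0.0678 and 0.0623) was dropped. Slbp, which processes and stabilises replication-dependent histone messages, read 6.82, 7.11 and 6.65 and then 7.46, 7.79 and 7.18, a difference of 0.62 ± 0.19 (adjusted p = 0.0535). It passed under the block on experiment (adjusted p = 0.00791), quantile normalization (0.0450), a filter on dim probe sets (0.0404), array weights (0.0394) or the mean of its probe sets (0.0300). It also passed without vehicle array 2 (0.0484) or tamoxifen array 3 (0.0389).

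Of 5 regulators of S phase entry, 3 rose: E2f1, Ccne2 and Fbxo5. E2f1, an activating E2F, read 7.29, 7.16 and 7.13 in vehicle and 7.85, 8.23 and 8.25 after tamoxifen, a rise of 0.92 ± 0.13 (adjusted p = 0.00393). Of the 2 cyclin E genes, Ccne2 rose by 1.25 ± 0.29, from 7.28, 7.43 and 7.08 to 7.94, 9.12 and 8.49. Dropping vehicle array 3 or tamoxifen array 3 ended the call (adjusted p 0.0613 and 0.0624), and its dimmer probe set changed by -0.18 (adjusted p = 0.441). Ccne1 read 6.84, 6.67 and 6.67 and then 6.96, 7.62 and 7.90, groups that did not overlap, with a difference of 0.77 ± 0.23 (adjusted p = 0.0545). Without tamoxifen array 1 it passed (1.04, adjusted p = 0.00599), as it did with the dim filter (0.0384), trend and robust variance (0.0487), array weights (0.0369) or probe sets averaged per gene (0.0409).

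Cdk2, the kinase partner of cyclin E, overlapped between groups, at 8.75, 8.79 and 8.16 and then 8.67, 8.96 and 8.93 (0.28, interval -0.16 to 0.73). Fbxo5, an inhibitor of the anaphase-promoting complex in S phase, rose by 0.72 ± 0.17, and did not pass once vehicle array 2 or 3 was dropped (adjusted p 0.0754 and 0.0582). Brca1, which protects and repairs forks, rose from 5.21, 5.10 and 5.08 to 5.99, 6.32 and 6.42, by 1.11 ± 0.13 (adjusted p = 0.00196). Outside the list, the D-type cyclin gene Ccnd1 rose by 4.40 ± 0.28 and the proliferation marker Mki67 by 3.14 ± 0.44. Of the CDK inhibitors, Cdkn1a (p21) rose by 0.87 ± 0.16, whereas Cdkn1b (p27) fell by 0.87 ± 0.24 (adjusted p = 0.0383). Averaging its probe sets (adjusted p = 0.136) ended the Cdkn1b call, as did dropping vehicle array 1, 2 or 3 (0.0741, 0.109 and 0.0525) or tamoxifen array 2 or 3 (0.0856 and 0.0561).

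**Figure D3:**
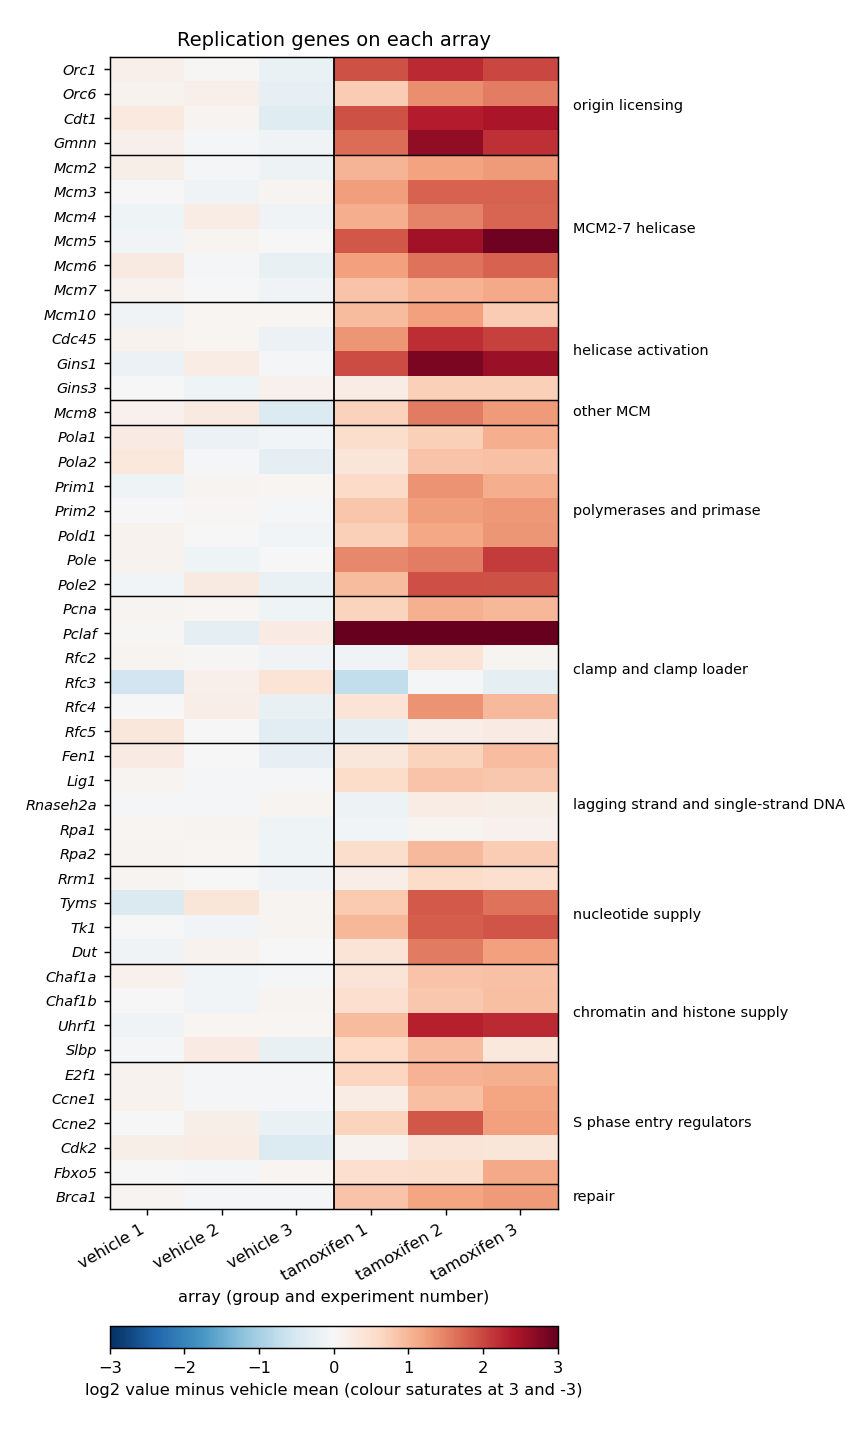
Each row is a gene and each column an array, and colour gives the log2 value minus the gene's mean over the vehicle arrays, saturating at 3 and -3. Tamoxifen columns are red for most genes, and the column of tamoxifen array 1 is paler than the other two.

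The 3 tamoxifen arrays did not respond alike. Over the 47 genes the mean log2 value lay above the vehicle mean by 0.79 on tamoxifen array 1, by 1.36 on array 2 and by 1.31 on array 3, while the vehicle arrays lay between -0.08 and 0.04. Array 1 was the lowest tamoxifen array for 45 of the 47 genes, the exceptions being Mcm10 and Slbp. It was also the lowest for 21 of 23 genes (91.3%) that rose in a wider replication list outside the members. It was the lowest for 61.1% of 1940 other genes that rose and for 38.2% of all genes. The difference from the vehicle array of the same number was positive for 41 of the genes in experiment 1, and for 46 in experiment 2 and in experiment 3, with medians of 0.64, 1.19 and 1.23. The spread of these genes was wider after tamoxifen, with the larger SD there for 40 of the 47 and a median SD of 0.30 against 0.12. The low values of tamoxifen array 1 enter that SD, and the spread of all genes was not compared. Without tamoxifen array 1, 40 of the 47 rose, and without array 2 or vehicle array 3, 29 did. Of all 14217 genes 1788 rose without tamoxifen array 1, 1374 without tamoxifen array 2 and 1566 without vehicle array 3.

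**Figure D4:**
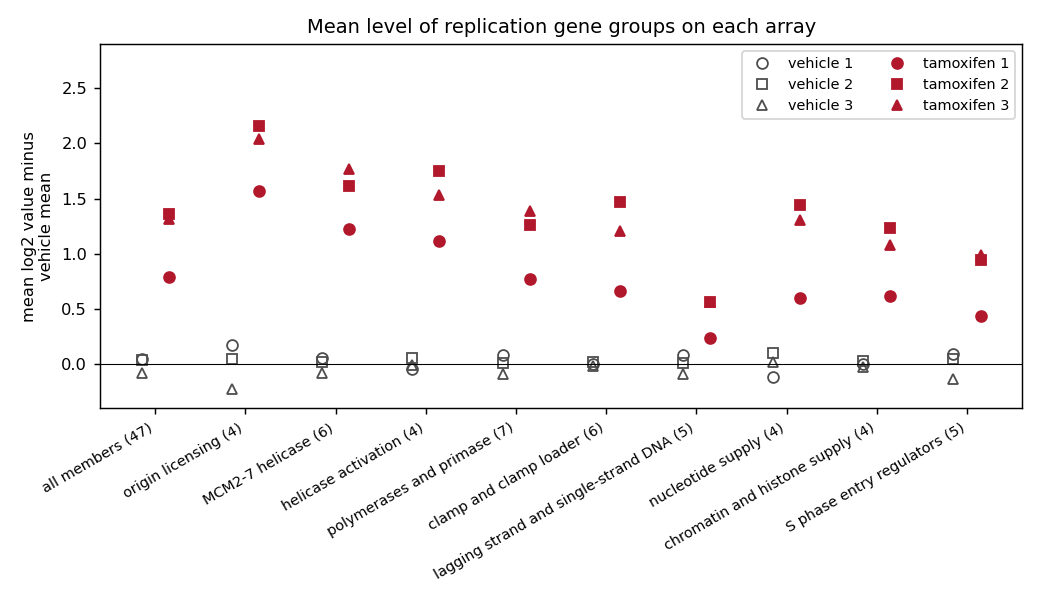
Points give, for each array, the mean over the genes of a group of the log2 value minus the gene's vehicle mean, open for vehicle and filled for tamoxifen, with the number of genes in parentheses. In each group plotted every tamoxifen array lies above every vehicle array, and tamoxifen array 1 is the lowest of the 3, from 0.24 for lagging strand genes to 1.57 for origin licensing.

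Of the 47 genes 11 had several probe sets, and for 6 of them every probe set rose. For Gmnn and Ccne2 the brightest rose and the dimmer one did not pass. For Rfc5, Slbp and Cdk2 none passed. No probe set of any of the 11 fell.

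**Figure D5:**
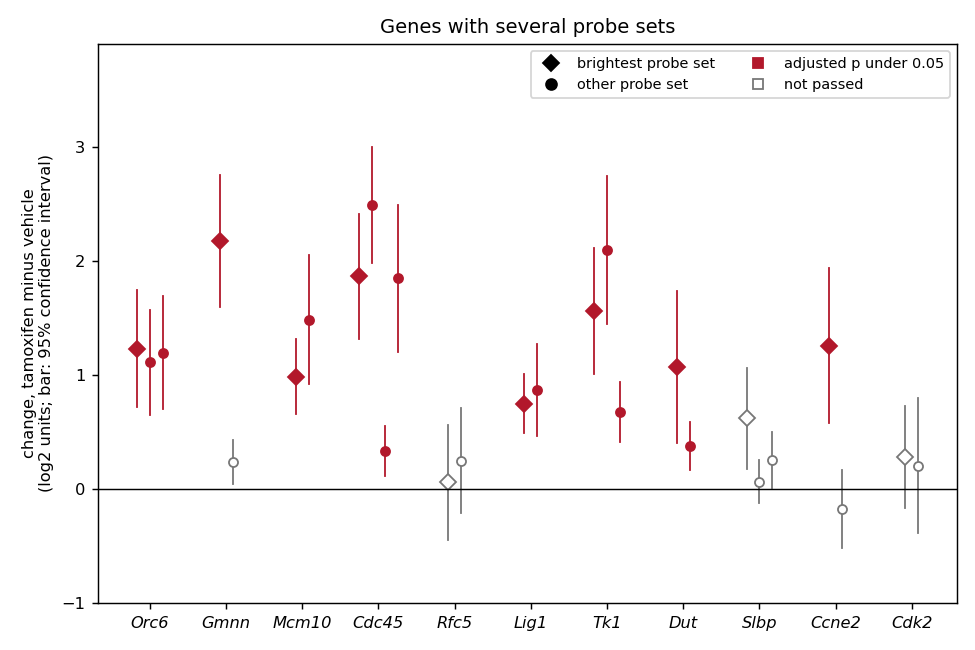
Changes (log2 units, with 95% confidence intervals) of every probe set of the 11 genes with several, diamonds for the brightest and filled red symbols for those past the threshold. The probe sets of Orc6 lie within 1.11 to 1.23, whereas those of Cdc45 range from 0.33 to 2.49.

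A wider list of 64 replication genes outside the 52, of which 53 were measured, rose less uniformly: 23 rose, 4 fell and 26 did not pass, with a median of 0.45. Of all genes 13.9% rose and 17.3% fell. In this list the share that rose was 43.4%, and the share that fell was below that of all genes. The largest rises were in Ccna2, the S phase and mitotic cyclin (4.26 ± 0.46, from 3.72 ± 0.07 to 7.98 ± 1.02), and Top2a, which untangles copied DNA (2.97 ± 0.29). Exo1, a repair nuclease, rose by 2.61 ± 0.39, and Dscc1, part of an alternative clamp loader, by 2.54 ± 0.21. The 4 that fell were Orc5, given above, Pold3, Mcm9 and Cul4a. Pold3, an accessory subunit of the lagging-strand polymerase, fell by 0.73 ± 0.12 while its partner Pold2, named after its value was seen, rose by 1.04 ± 0.21. Mcm9, the partner of Mcm8, fell by 0.66 ± 0.15, and did not pass once tamoxifen array 1 or 2 or vehicle array 2 was dropped (adjusted p 0.0639, 0.0715 and 0.0529). Cul4a, scaffold of the ubiquitin ligase that destroys Cdt1 in S phase, fell by 0.51 ± 0.15 (adjusted p = 0.0496). Dropping any 1 of the 6 arrays (0.0517 to 0.136), quantile normalization (0.0678) and trend and robust variance (0.0584) each ended that call. Without vehicle array 2, tamoxifen array 1 or tamoxifen array 2 the number that fell was 2.

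Of 16 measured genes of the E2F and RB families and their partners, 7 rose, 3 fell and 6 did not pass, with a median of 0.43. The share that rose was 43.8%, against 13.9% of all genes. The 3 falls were near the share of all genes that fell, 17.3%. Mybl2, which joins the MuvB complex in S phase, rose by 1.33 ± 0.17 and E2f5 by 1.28 ± 0.09. The atypical repressor E2f8 rose by 1.12 ± 0.17, from a low 3.92 ± 0.16 to 5.05 ± 0.30. The pocket protein gene Rbl1 (p107) rose by 1.09 ± 0.19. With the filter on dim probe sets, which left E2f8 out, 6 genes of these families rose. Rbl2 (p130), the pocket protein typical of resting cells, fell by 1.43 ± 0.22, from 9.38 ± 0.12 to 7.95 ± 0.46. Tfdp2, a dimer partner of E2F proteins, fell by 1.86 ± 0.23, and Lin37, a MuvB subunit, fell by 0.43 ± 0.09. Their relatives, named after their values were seen, did not fall alike. The other dimer partner Tfdp1 rose by 0.70 ± 0.09 (adjusted p = 0.00272). The MuvB subunit Lin9 rose by 0.93 ± 0.18 (adjusted p = 0.0107), and Lin52 (-0.30) and Lin54 (-0.02) did not pass. Rb1 itself read 9.53 ± 0.02 and 9.50 ± 0.15 (-0.03, adjusted p = 0.877). The sign of that Rb1 difference turned with quantile normalization, and without tamoxifen array 3.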

How the data were processed

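Total RNA was hybridised to 6 Affymetrix rat arrays. The authors deposited RMA values on the log2 scale, 1 per probe set and array, per the submitters' processing notes, which name no version. RMA corrects background, normalises across arrays and summarises probes, and it compresses low values. The deposited log2 values ran from 2.99 to 14.58, and precision is limited by the number of arrays. Of 31099 probe sets 57 are controls and were left out, 20826 carry 1 gene symbol in the platform annotation, and 436 that carry several were not named.

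Tamoxifen was compared with vehicle in limma 3.58.1 (R 4.3.3, lmFit and eBayes, two-sided), with no covariate. P-values were adjusted over all 31042 remaining probe sets by the Benjamini-Hochberg method and called at 0.05. Standard errors and 95% intervals are the model's. A gene is given by its probe set of highest mean. The p-values weigh the difference between groups against the spread between these arrays. In this fit that spread includes differences between experiments. With 3 arrays a group an exact permutation p could not be lower than 0.1, and none is given. The procedure was tested on simulated data.

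The named genes are all members, the 4 largest rises and falls past the threshold in each of the 2 wider lists, and 6 fixed genes. Orc2, Orc3, Orc4, Rfc1, Pold2, Tfdp1, Lin9, Lin52 and Lin54 were added after their values were seen. So were Pold4, Pole4, Gins4, Donson, Recql4, Topbp1, Mtbp, Dctd and Dck. Topbp1 is named for its promoter too, and the cell type markers come from separate lists. The members and lists were chosen with earlier results of these data known. Arrays of the same experiment number deviated together from their group means (correlations 0.26, 0.20 and 0.28), so the numbers in the titles were taken as pairs and entered as a block in an additional fit. Also tried were dropping each array, quantile normalization, median centring, a filter on dim probe sets, trend and robust variance, array weights, other choices of probe set and a minimum fold of 1.5.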

Additional observations from a re-analysis of the deposited data

How the results depend on the processing

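Of the 39 genes that rose, 27 kept their call under every alternative run gene by gene, which leaves out the minimum fold, and 0 members fell under any alternative. With 1 array dropped, 29 to 40 of the 47 genes and 37 to 48 of the 63 probe sets rose, with a median change of 0.86 to 1.22. In the wider replication list 17 to 24 rose and 2 to 4 fell, in the E2F and RB families 7 to 8 rose and 3 fell, and among all genes 1374 to 1915 rose and 1688 to 2178 fell. Against a fold of 1.5, 13 of the 47 genes and 16 of the 63 probe sets passed as higher, 10 of the wider list as higher and 0 as lower, 2 of the E2F and RB families as higher and 1 as lower, and 492 and 391 of all genes as higher and lower.

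With the experiment number as a replicate block, 37 of the 47 genes rose and 0 fell. Of all 14217 genes 1977 rose and 2753 fell in that fit. Pola2, Fen1 and Rrm1 lost their call and Slbp gained one. Among other named genes Orc4, Sox10, Egfl8, Pdgfrb and Cspg4 gained one, and Twist2 and Donson lost theirs.

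Differences that did not pass turned sign in places. Averaged probe sets gave Orc3 0.053 and Orc4 -0.039, and quantile normalization gave Rb1 0.024. With 1 array dropped the differences ranged from -0.48 to 0.055 for Orc2, -0.23 to 0.054 for Orc3, -0.11 to 0.044 for Rb1, -0.011 to 0.25 for Rfc2, -0.11 to 0.23 for Rfc5 and -0.019 to 0.11 for Rpa1. The cause was not tested. Without detection calls, levels near the bottom of the scale, such as Orc1 and E2f8 in vehicle, have no known distance from background.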
